A study of Mus musculus with 18 samples.

Results

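Sox4, Sox9, Sox10 and Sox11 encode transcription factors of the SOX family, and their UMI counts (counts of distinct captured mRNA molecules) were followed here through mouse mammary development. These 4 members were chosen by name from the 31053 genes counted, and 20 SOX family genes were listed beside them. SOX proteins bind DNA through a shared high mobility group domain. Sox9 and Sox10 belong to the SOXE group, and Sox4 and Sox11 to the SOXC group. Sox10 is best known from neural crest, where it drives Schwann cells and melanocytes, and it is also used in mammary and salivary epithelium. Sox9 acts in cartilage, hair follicle and mammary luminal progenitors, while the SOXC genes are widely used in embryonic progenitors.

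The 18 droplet libraries were made from sorted mouse mammary cells, with 1 library each for C57BL/6 mammary rudiments and adjacent skin at embryonic day 18.5 (E18.5), postnatal day 5, pre-puberty (2.5 weeks), terminal end buds (TEB) and ducts at 5 weeks, and virgin adults of 10 weeks of C57BL/6 and SWISS. FVB/NJ glands gave 3 virgin adult libraries of 10 weeks (A10, P7, D12), 2 of pregnancy day 12.5 (H, G), 2 of pregnancy day 18.5 (F4, B4), 2 of lactation day 10 (F11, D6) and 1 post-involution library, labelled 3 weeks post birth. The paper counts that time from weaning, so its origin is uncertain. Per the study's methods the rudiments and the skin came from embryos with an Lgr5-GFP knock-in, used to dissect the rudiments. The TEB and ducts carried E-cadherin-GFP. Cells were sorted as lineage-negative and CD24-positive, animals were pooled, and adults were not staged for estrus. After the study's limits on genes and counts, 132599 of 149371 barcodes remained, 1700 to 13397 per library, with median depths of 2498 to 21609 UMIs per cell. P7 was the shallowest library and had barcodes of 14 bases where the others had 16. Pairs of libraries shared at most 253 barcodes, and never more than 2.58% of those of the smaller library. The day 5, pre-puberty, adult C57BL/6 and SWISS libraries shared 0 to 7 barcodes with each of the other 13 libraries of 16-base barcodes, which shared 8 to 253 among themselves. Each comparison of day 5, pre-puberty or adult C57BL/6 cells with E18.5, and of these adults with FVB/NJ, crosses this split of barcode sets, and the part of the split in the values was not tested.

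Cells were clustered without any SOX gene, and clusters were named from fixed markers as basal (contractile, Krt5 and Acta2), LP/alveolar (luminal progenitor and its secretory descendants, Elf5 and Kit), ML (hormone-sensing mature luminal, Prlr and Esr1) or as other cell types. At E18.5 the cells that clustered with postnatal LP/alveolar and basal cells carried their markers weakly. The 8 LP markers summed to 1133 UMIs per 1000000 UMIs of all genes (CPM) there against 5553 CPM at day 5 and 11648 at pre-puberty, and the 8 basal markers to 1800 against 24190 and 23412. These E18.5 cells are therefore called LP-clustered and basal-clustered below, and the same library was also clustered with skin, where 4876 cells formed a class named rudiment. Shares of positive cells are shares of cells with at least 1 UMI of the gene after each cell was thinned to 2000 UMIs, leaving out shallower cells. Intervals in parentheses are 95% intervals and cover counting error only. Those of CPM and of single shares are exact. Those of ratios of shares are large-sample approximations, which are rough where few cells were positive.

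In the mm10 (GRCm38) annotation, release GENCODE M21, Sox4 (ENSMUSG00000076431) lies at chr13:28948919-28953713 on the minus strand, Sox9 (ENSMUSG00000000567) at chr11:112782224-112787760 on the plus strand, Sox10 (ENSMUSG00000033006) at chr15:79154908-79165240 on the minus strand and Sox11 (ENSMUSG00000063632) at chr12:27334264-27342574 on the minus strand. The noncoding gene Gm26735 (chr13:28943048-28951671, plus strand) overlaps Sox4. Its UMIs came to between 0.427% and 11.6% of those of Sox4 per library, and no source used here says whether reads were counted by strand. The split of reads between this pair is uncertain. Over all 18 libraries 267327 UMIs were counted for Sox4, 214045 for Sox9, 30146 for Sox10 and 18318 for Sox11.

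**Figure D1:**
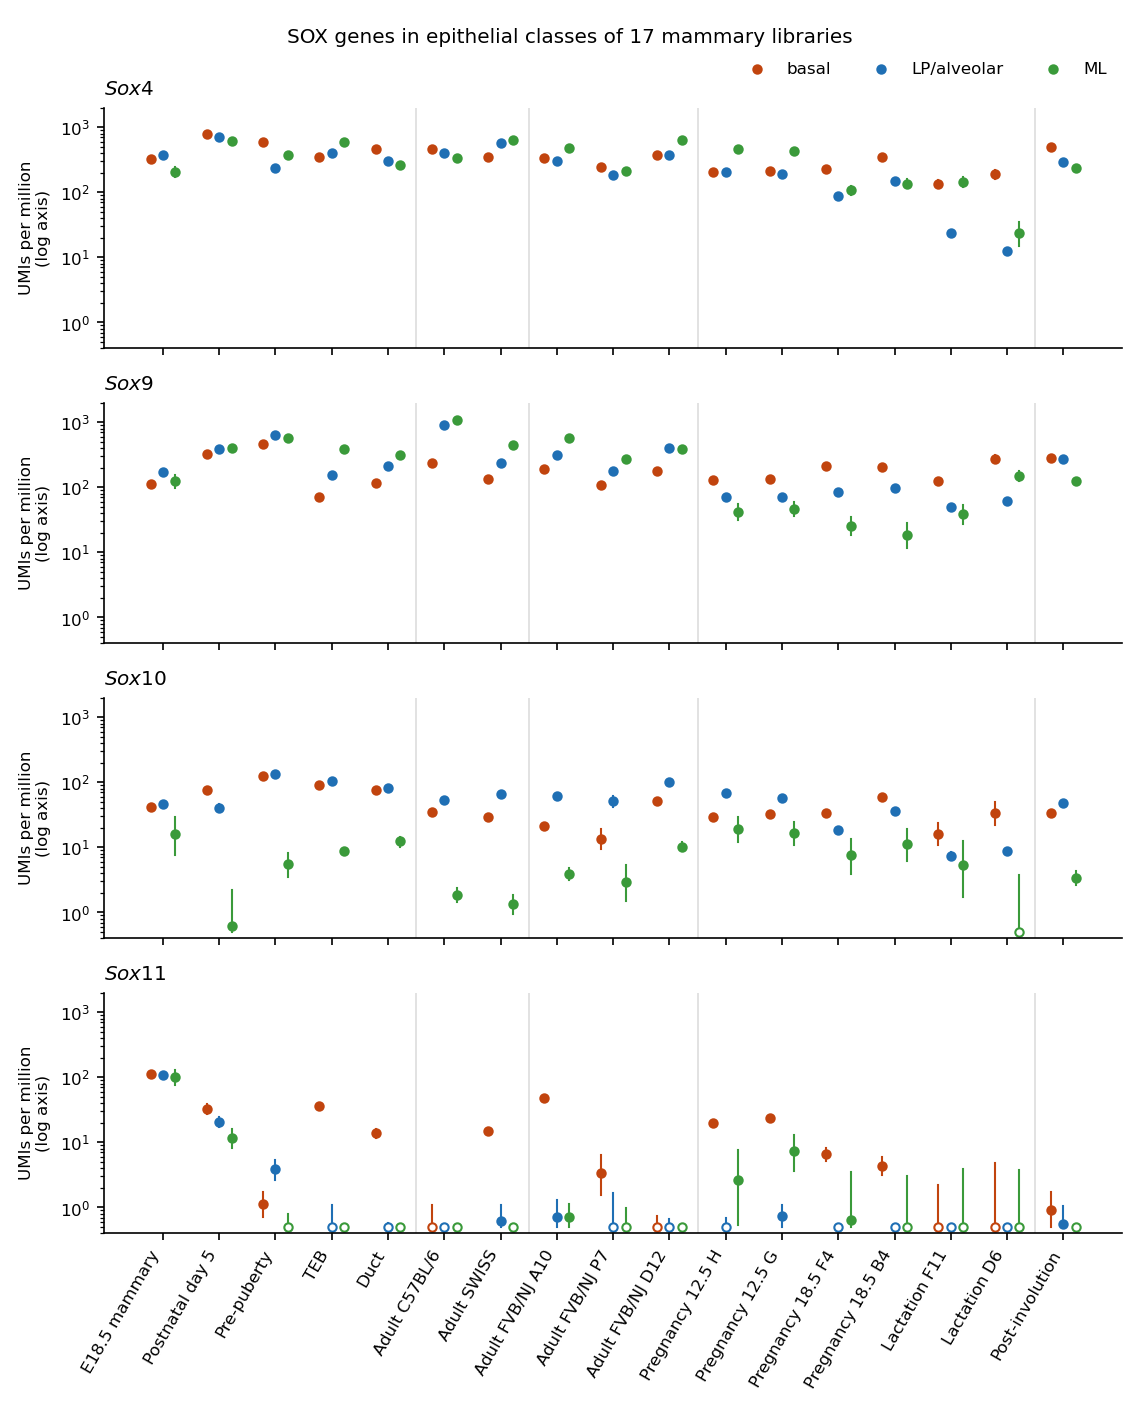
CPM (log axis) of each SOX gene in basal, LP/alveolar and ML cells of 17 mammary libraries. Bars are 95% counting intervals and open points at the floor of the axis stand for values under 0.5 CPM. Sox10 is lowest in ML cells of every library, from 0 to 19.4 CPM, and Sox11 is under 8 CPM in LP/alveolar and ML cells of every library after day 5.

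Sox10 was detected in LP/alveolar and basal cells of each postnatal stage, and in the LP-clustered and basal-clustered cells of E18.5, and was low in ML cells. It was higher in LP/alveolar than in ML cells in 17 of 17 mammary libraries, with counting intervals apart in 16, and higher in basal than in ML cells in 17 of 17, with intervals apart in 15. Between LP/alveolar and basal cells the order varied, LP/alveolar being higher in 12 libraries and basal in 5. ML cells stayed between 0 CPM (lactation D6) and 19.4 CPM (pregnancy 12.5 H).

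Within C57BL/6, the Sox10 level of LP-clustered cells was 45.7 CPM (42.7 to 48.9) at E18.5. LP/alveolar cells had 40.9 CPM (36.0 to 46.3) at day 5, 134 CPM (127 to 142) at pre-puberty and 54.4 CPM (51.2 to 57.8) in the adult. Basal-clustered cells had 42.2 CPM at E18.5, and basal cells 75.0 CPM at day 5, 124 CPM at pre-puberty and 35.1 CPM in the adult. Both classes were thus highest at pre-puberty, where Sox10 was found in 25.7% of LP/alveolar cells (22.6 to 29.1) and 22.5% of basal cells (20.8 to 24.2). At E18.5 the shares were 8.79% and 8.47%, so pre-puberty was higher by a ratio of 2.93 (2.45 to 3.50) in LP/alveolar and 2.65 (2.10 to 3.35) in basal cells. The adult to E18.5 ratio was 1.35 (1.15 to 1.58) in LP/alveolar and 0.846 (0.651 to 1.10) in basal cells, and day 5 to E18.5 gave 0.908 (0.663 to 1.24) and 1.79 (1.31 to 2.46). These are single libraries, so no test between stages was possible. In the joint clustering of these libraries the larger LP/alveolar cluster held 6478 cells, and 4458 at a finer clustering. An unnamed cluster of 4051 cells, led by genes such as Pclaf and Top2a, appeared at the finer clustering. No stage ratio of any member was repeated at that finer clustering. At 1000 UMIs the adult ratios were 1.21 (0.970 to 1.51) and 0.771 (0.541 to 1.10), and that of day 5 LP/alveolar cells 0.612. Without thinning, where depth is not matched, the adult ratio of LP/alveolar cells turned to 0.903 and the day 5 one to 1.28, and the adult ratio of basal cells was 0.413, while pre-puberty stayed above E18.5 at every depth tried.

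Schwann-like cells carried more Sox10 in CPM than either epithelial class in the E18.5, day 5, pre-puberty and adult C57BL/6 libraries. These cells were subclusters named from 10 Schwann markers, with no SOX gene among them. Their Sox10 level was 206 CPM (173 to 243) in 220 cells at E18.5 and 170 CPM (141 to 204) in 104 cells at day 5. It was 444 CPM (412 to 479) in 358 pre-puberty cells and 278 CPM (155 to 458) in 33 adult cells. The share of positive Schwann-like cells was 31.9% at E18.5 (24.9 to 39.6), 28.7% at day 5 (20.1 to 38.6) and 61.3% at pre-puberty (55.9 to 66.5). In the adult, 4 of the 8 cells that were deep enough were positive, a share of 15.7% to 84.3% by its interval.

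Set against LP/alveolar cells, the share of Schwann-like cells with Sox10 was higher by a ratio of 3.63 (2.81 to 4.70) at E18.5, 3.6 (2.36 to 5.48) at day 5 and 2.38 (2.05 to 2.77) at pre-puberty. Against basal cells the ratios were 3.77 (2.76 to 5.16), 1.89 (1.29 to 2.77) and 2.73 (2.44 to 3.06). Without thinning the ratios were 1.82, 2.23 and 1.12 to LP/alveolar cells and 1.46, 1.76 and 1.37 to basal cells, and the cause of the change was not tested. The 8 deep cells of the adult gave 4.22 (2.10 to 8.49) and 6.98 (3.44 to 14.2), and all 33 cells without thinning 1.11 (0.603 to 2.03) and 1.95 (1.06 to 3.59). Among these 4 C57BL/6 libraries the Sox10 level of Schwann-like cells and of both epithelial classes was highest in the same one, pre-puberty.

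**Figure D2:**
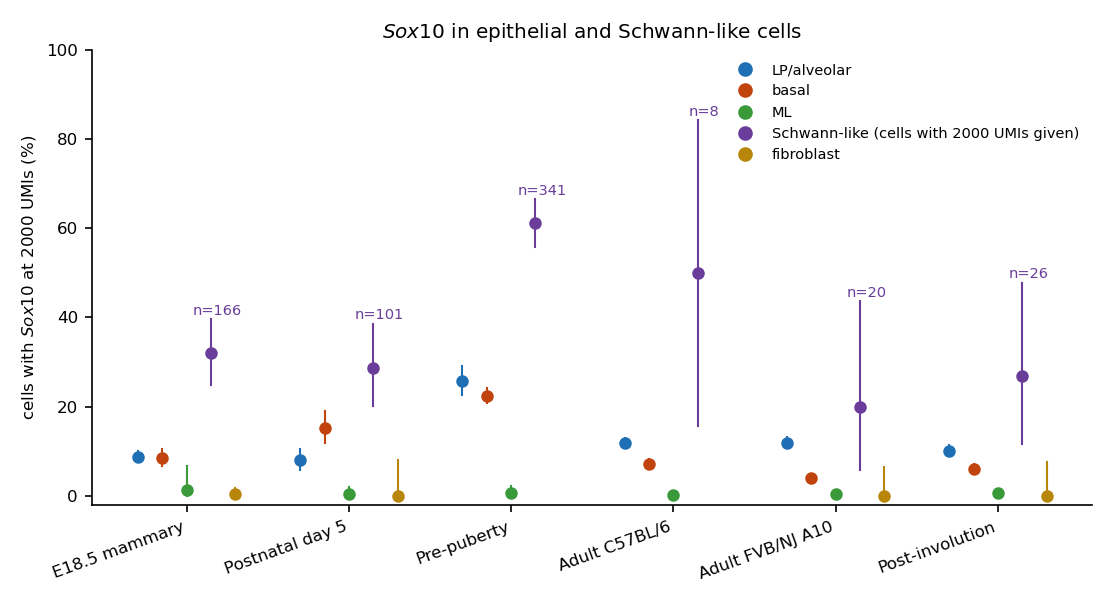
Share of cells with Sox10 at 2000 UMIs in LP/alveolar, basal, ML, Schwann-like and fibroblast cells of 6 libraries, with 95% exact intervals and the number of Schwann-like cells deep enough. LP/alveolar and basal cells reach 25.7% and 22.5% at pre-puberty, against 61.3% of Schwann-like cells and 0.599% of ML cells.

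Among FVB/NJ and SWISS libraries Schwann-like cells were few and shallow. P7 had 73.8 CPM in 34 such cells, beside 51.0 CPM in its LP/alveolar and 13.7 CPM in its basal cells. The first value rests on few UMIs, so its order against LP/alveolar cells is uncertain. A10 had 100 CPM in 42 cells and 4 positive of 20 deep cells (5.73% to 43.7%), and post-involution had 106 CPM in 52 cells and 26.9% of 26 (11.6 to 47.8). In A10 the ratio to LP/alveolar cells, 1.68 (0.694 to 4.06), did not exclude equality, while cells chosen by a gate of 4 detected Schwann markers gave 3.05 (1.39 to 6.72) and all cells without thinning 0.757 (0.405 to 1.42). Post-involution gave 2.68 (1.41 to 5.11), and 0.904 (0.533 to 1.53) without thinning. Against basal cells the ratios were 5.01 (2.06 to 12.2) in A10 and 4.45 (2.32 to 8.55) in post-involution, and 2.07 (1.10 to 3.89) and 2.12 (1.24 to 3.62) without thinning. The FVB/NJ subcluster was also led by the lymphatic endothelial genes Ccl21a, Lyve1 and Mmrn1. Only 19 of its 42 cells in A10, 27 of 52 in post-involution and 20 of 34 in P7 had 4 or more Schwann markers. In lactation D6 it was 8 of 44. The 44 cells had 10.7 CPM of Sox10 beside 33.8 CPM in basal cells there. The former rests on very few UMIs, so their order is uncertain. SWISS had 15 Schwann-like cells at 510 CPM (245 to 938), from 10 UMIs.

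Fibroblasts and immune cells, as background classes, gave lower values. In libraries with 20 or more such cells, fibroblasts had 0 to 5.03 CPM of Sox10 in C57BL/6 and FVB/NJ and 7.52 CPM in SWISS, and immune cells had 0 to 1.05 CPM. This fibroblast class left out a C57BL/6 subcluster of 541 cells led by genes such as Pi16 and Pcolce2, which the markers named ML. It also left out an unnamed FVB/NJ subcluster of 501 cells with 6 of 6 fibroblast markers raised. Mural cells of vessel walls were higher in some libraries, with 32.0 CPM (13.8 to 63.0, from 8 UMIs) in pregnancy 18.5 B4. That interval covers the 36.5 CPM of LP/alveolar and the 58.6 CPM of basal cells in B4. In the E18.5 mammary library, 0.299% of fibroblasts were positive (0.00758 to 1.66; median depth 5028 UMIs) against 8.79% of LP-clustered cells (median depth 6203).

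Markers of Schwann cells were detected in the epithelium at a small part of their level in Schwann-like cells. The 10 Schwann markers summed to 28.4 CPM in LP-clustered and 21.4 CPM in basal-clustered cells at E18.5, against 5186 CPM in Schwann-like cells. At pre-puberty they summed to 55.2 CPM in LP/alveolar, 15.5 CPM in basal, 53.4 CPM in ML and 13793 CPM in Schwann-like cells. For each 100 marker UMIs the pre-puberty library held 243 Sox10 UMIs in LP/alveolar cells, 801 in basal cells, 10.2 in ML cells and 3.22 in Schwann-like cells. Over the 17 mammary libraries this number ran from 123 to 665 in LP/alveolar cells and from 58.1 to 801 in basal cells. In ML cells it ran from 0 to 357, which overlaps both of these ranges. In Schwann-like cells it ran from 0.105 to 3.97, over the 8 libraries with 20 or more of them. The lowest value was that of lactation D6 and rests on very few Sox10 UMIs. Cells with 4 or more Schwann markers numbered 0 to 2 in the postnatal-type epithelial classes of each library, and leaving them out gave 8.48% positive basal-clustered cells at E18.5 and no change in LP-clustered cells.

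The deposited skin library placed Sox10 likewise. Its 464 Schwann-like cells had 140 CPM (125 to 158) and 23.3% positive cells, its 147 epidermal cells had 0 UMIs, and 327 cells that clustered with the mammary rudiment had 16.8 CPM (11.6 to 23.6). In the mammary library the rudiment class had 45.4 CPM (43.4 to 47.5) and 8.78% positive cells, and the epidermal class 9.53 CPM (7.22 to 12.3) and 2.24%. In the clustering with later mammary libraries the epidermal class of this library was larger, 2020 cells, and had 37.8 CPM and 6.87%. That larger class must share cells with the rudiment class, which held 4876 of the library's 6398 cells.

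In the rudiment, Sox4 and Sox11 were both widely detected. Sox11 had 127 CPM (124 to 130, from 5490 UMIs) and 22.0% positive cells (20.8 to 23.2), and Sox4 had 348 CPM (343 to 354) and 45.9% (44.5 to 47.4). The epidermal class of the same library had Sox11 at 48.3 CPM and 8.42% and Sox4 at 347 CPM and 39.8%. The rudiment-to-epidermis ratio of shares was 2.61 (2.04 to 3.35) for Sox11 and 1.15 (1.05 to 1.27) for Sox4. The Sox11 excess rests on this clustering with skin, which put 744 cells in the epidermal class. When the same library was clustered with later mammary libraries, 2020 of its cells were classed as epidermal, with Sox11 at 127 CPM and 20.8% positive (19.0 to 22.6). This larger class must share cells with the rudiment class, which held 4876 of the library's 6398 cells. At a finer clustering that epidermal cluster, over all libraries joined, held 2230 cells in place of 4196. An unnamed cluster of 4051 cells, led by genes such as Pclaf and Top2a, appeared there.

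Sox11 was not particular to the epithelium at this age. In the skin library it had 170 CPM (152 to 189) in cells of the rudiment class, 160 CPM (156 to 164) in the 6524 cells of unnamed clusters, 150 CPM in tendon-like, 110 CPM in Schwann-like and 79.1 CPM in epidermal cells. In the E18.5 mammary library fibroblasts had 58.4 CPM and Schwann-like cells 72.1 CPM.

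Cells with both Sox4 and Sox11 made up 10.5% of rudiment cells (9.61 to 11.4, 482 of 4599). The product of the single shares is 10.1%, a ratio of 1.04. The other pairs of members in the rudiment gave ratios of 1.01 to 1.22, the largest being Sox10 with Sox11 (108 cells, 2.35% against 1.93%). At a depth of 2000 UMIs a cell without a UMI may still express the gene.

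A list of cell cycle genes was kept out of the clustering, and some clusters were still led by such genes, among them an unnamed one of 698 cells in the clustering of E18.5 mammary and skin cells. Rudiment cells with UMIs of both Mki67 and Top2a, genes of dividing cells, numbered 1067, and 2310 cells had neither. Sox11 was 149 CPM (142 to 155) in the former and 108 CPM (103 to 114) in the latter, with 25.2% and 20.2% positive. Sox4 went the other way, 326 CPM (316 to 335) against 367 CPM (358 to 377). These groups differed in depth, with medians of 12959 and 6076 UMIs. In the skin library the order of Sox11 was not seen, with 157 CPM (126 to 194) in 61 cells with both genes and 171 CPM (146 to 200) in 182 cells with neither. At a finer clustering the rudiment split into a class of 4363 cells with 130 CPM of Sox11 and 136 CPM of Sox9 and a class of 513 cells with 91.5 CPM of Sox11 and 288 CPM of Sox9.

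**Figure D3:**
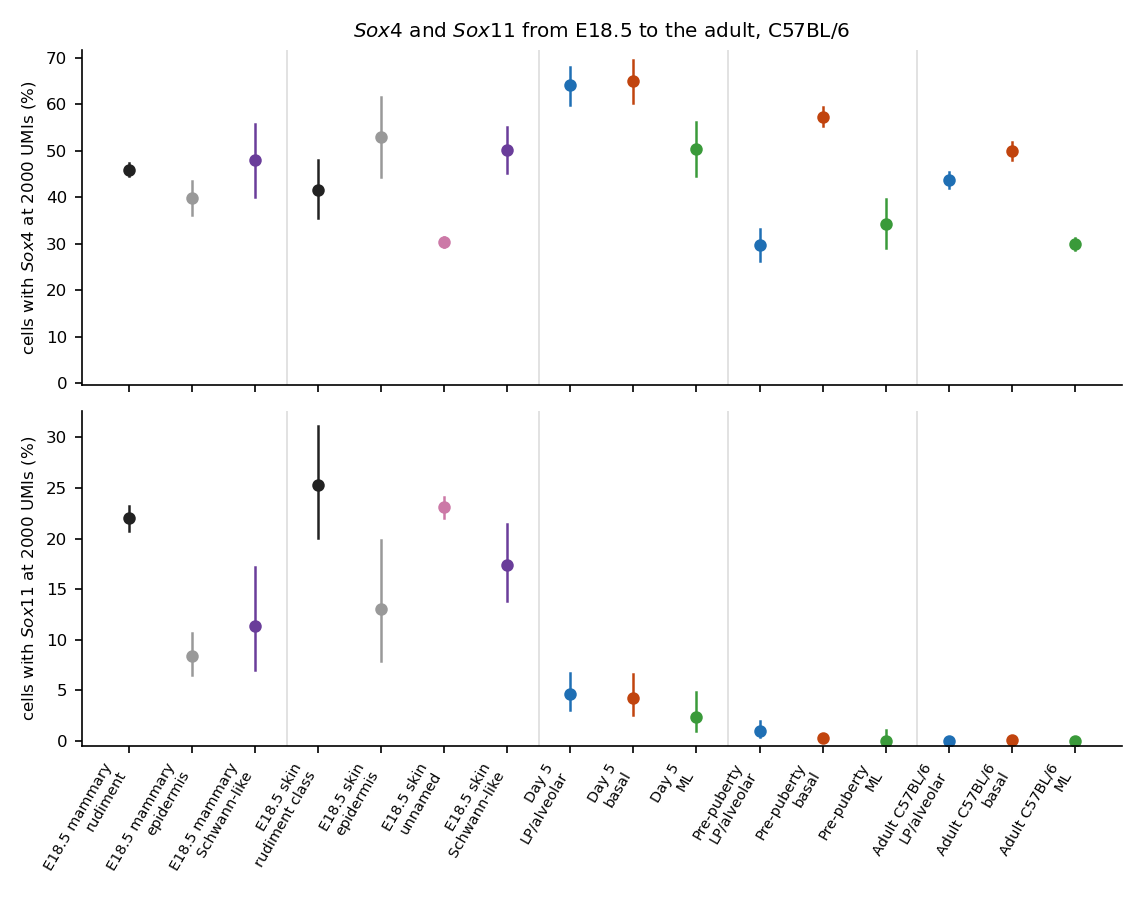
Share of cells with Sox4 (top) and Sox11 (bottom) at 2000 UMIs in classes of the E18.5 mammary and skin libraries and of later C57BL/6 libraries, with 95% exact intervals. Sox11 is in 22.0% of rudiment cells and in at most 4.64% of epithelial cells of any later library shown, while Sox4 stays between 29.6% and 64.9%.

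From day 5 to the adult Sox11 was lower than at E18.5 in the C57BL/6 epithelium in CPM. Sox11 had 20.4 CPM (17 to 24.2) in LP/alveolar, 33.0 CPM (27.4 to 39.4) in basal and 11.7 CPM in ML cells at day 5. At pre-puberty it had 3.84, 1.14 and 0 CPM, and in the adult 0.0513 CPM, 0.463 CPM and 0 CPM. The ratio of pre-puberty to E18.5 shares was 0.0498 (0.0237 to 0.105) in LP/alveolar and 0.0122 (0.00545 to 0.0275) in basal cells. Basal cells of the pubertal TEB had 36.3 CPM and 6.93% positive cells, beside 33.0 CPM and 4.27% at day 5, with CPM intervals that overlapped. In other cells of the day 5 library Sox11 was at 8.71 CPM in 1994 epidermal cells, 228 CPM in 44 fibroblasts and 354 CPM in 235 cells of unnamed clusters. These epidermal cells are of the joint cluster that held 4196 cells, and 2230 at the finer clustering.

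Among the E18.5, day 5, pre-puberty and adult C57BL/6 libraries Sox4 was highest at day 5, with 699 CPM in LP/alveolar, 791 CPM in basal and 608 CPM in ML cells. By pre-puberty it had 240 CPM in LP/alveolar and 584 CPM in basal cells, and adult cells had 408 and 461 CPM. The day 5 to E18.5 ratio of shares was 1.38 (1.28 to 1.49) in LP/alveolar and 1.40 (1.27 to 1.55) in basal cells. Relative to E18.5 the pre-puberty share of LP/alveolar cells was lower by a ratio of 0.639 (0.567 to 0.721), and that of basal cells was higher, 1.24 (1.14 to 1.34). The adult ratios were 0.944 (0.891 to 1.0) and 1.08 (0.996 to 1.17). For LP/alveolar cells the adult ratio was 0.885 (0.818 to 0.958) at 1000 UMIs and 0.779 (0.752 to 0.806) without thinning, and for basal cells the latter was 0.758 (0.730 to 0.787), a turned direction. Without thinning the pre-puberty ratio of LP/alveolar cells was 0.921 and that of basal cells 1.01.

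Sox9 was higher in CPM in both classes at day 5, at pre-puberty and in the C57BL/6 adult than at E18.5, again in single libraries. LP-clustered cells had 175 CPM at E18.5, and LP/alveolar cells 395 CPM at day 5, 627 CPM at pre-puberty and 923 CPM in the adult, with 29.7%, 43.0%, 63.9% and 68.5% positive. Basal-clustered cells had 112 CPM at E18.5, basal cells 321, 456 and 236 CPM, and those of the pubertal TEB 71.1 CPM, below E18.5. The adult to E18.5 ratio of shares was 2.30 (2.16 to 2.46) in LP/alveolar and 1.70 (1.47 to 1.97) in basal cells, and 3.07 and 1.95 at 1000 UMIs. Without thinning, where depth is not matched, the ratios were 1.37 and 0.837. ML cells had 401 CPM at day 5, 576 CPM at pre-puberty and 1077 CPM in the adult, the highest value of the gene in any class. In Schwann-like cells Sox9 was 53.0 CPM at E18.5, 10.3 CPM at day 5 and 3.87 CPM at pre-puberty, so Sox9 was low in the cells where Sox10 was highest.

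Adult strains were set side by side, with classes that came from different clusterings. C57BL/6 adults were clustered with the earlier C57BL/6 mammary libraries, and FVB/NJ adults with the other FVB/NJ libraries. SWISS classes came from a clustering of all adult libraries, which was not used for the other strains here. Sox9 in ML cells was 1077 CPM in C57BL/6, 449 CPM in SWISS and 573, 272 and 392 CPM in the 3 FVB/NJ libraries, and in LP/alveolar cells 923, 240 and 313, 180 and 404 CPM. Sox10 in LP/alveolar cells lay at 54.4 CPM in C57BL/6 and 66.5 CPM in SWISS, inside the FVB/NJ values of 61.9, 51.0 and 102 CPM. Sox4 in basal cells was 461 CPM in C57BL/6, 352 CPM in SWISS and 338, 242 and 372 CPM in FVB/NJ. As C57BL/6 and SWISS have 1 library each, this was not tested, and 864 SWISS cells stayed in unnamed clusters.

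The pregnancy cycle was the comparison with replicate libraries. Counts were summed per library and class and tested with edgeR's quasi-likelihood test over all genes, in 9 FVB/NJ libraries with adjusted p from Benjamini-Hochberg correction. The study describes the libraries of a stage as biological replicates, and the labels do not tie them to animals, so p-values measure the spread between these libraries. Among samples processed together the paper lists FVB/N adult with post-involution, and none of pregnancy or lactation. Stage and processing run may therefore not be separable, and the part of the run in these values was not tested.

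Sox9 fell in the luminal classes between the virgin adult and pregnancy day 12.5. In LP/alveolar cells the level was 313, 180 and 404 CPM in the adult libraries A10, P7 and D12 and 70.3 and 71.1 CPM in H and G. All 3 adult values lay above both pregnancy values. The log2 fold change was -1.79 (SE 0.44, edgeR adjusted p = 0.0281). In ML cells the adult libraries had 573, 272 and 392 CPM and the pregnancy libraries 42.3 and 47.1 CPM, again without overlap, a log2 fold change of -3.33 (SE 0.64, edgeR adjusted p = 0.0132). Called genes made up 12.4% of the 13781 genes tested in LP/alveolar cells and 6.84% of the 9635 in ML cells, and 6.55% and 2.95% were lower. Among the members tested, Sox9 was the only member called, 1 of 4 in LP/alveolar and 1 of 3 in ML cells.

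The LP/alveolar call did not survive the loss of H (edgeR adjusted p = 0.261), G (0.239), F4 (0.0554), B4 (0.0572) or D12 (0.0535), with log2 fold changes of -2.11 to -1.61 over all 9 omissions. The FVB/NJ ML class held a second cluster of 445 cells with no ML marker among its top 10 genes, led by genes such as Elovl4, Fa2h and Krt79. It was named ML because 7 of the 8 ML markers were raised in it over other cells, and no other class competed. Without this second ML cluster, an alternative chosen after the data were seen, the ML change was -3.70 (edgeR adjusted p = 0.00288). In ML cells the call was lost without H (0.210) or G (0.209), with changes of -3.62 to -2.89. With H or G left out, pregnancy day 12.5 rests on 1 library that is assumed to vary like the others.

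Sox9 did not pass the test in basal cells. The level was 189, 107 and 176 CPM in A10, P7 and D12 and 131 and 133 CPM in H and G, with a log2 fold change of -0.17 (SE 0.39, edgeR adjusted p = 0.893), and the pregnancy values lay inside the adult range. The fall in LP/alveolar cells was larger than in basal cells of the same libraries by -1.71 on the log2 scale (SE 0.23, edgeR adjusted p = 0.00101), in a fit with library as a block. This difference between classes called 9.59% of 14400 genes, 5.92% in the lower direction, and 1 of the 4 members.

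Between pregnancy day 12.5 and 18.5 and lactation day 10 no member passed the test in any class. Called genes in these comparisons made up 0.987% and 3.01% in LP/alveolar, 0% and 0.424% in basal and 0% and 0% in ML cells, and 2.16% and 1.28% for the difference of LP/alveolar from basal cells, where no member passed either. Here 1163 basal genes and 720 and 884 ML genes had an unadjusted p under 0.05 where edgeR called none. In those comparisons DESeq2 called 99 higher and 71 lower basal genes, and 26 and 40, then 97 and 27 ML genes. DESeq2 and edgeR without the filter on low counts called Sox9 higher in lactating ML cells (2.68, adjusted p = 0.0103, and 2.61, adjusted p = 0.00128), where the edgeR value was 2.68 with adjusted p = 0.206. The second ML cluster gave 55 of the 258 ML cells of lactation D6, with 348 CPM of Sox9 against 75.4 CPM in the other 203, and 8 of those of F11. The Sox9 level of all ML cells was 150 CPM in D6 and 38.4 CPM in F11.

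The milk genes gave 77.2% and 78.2% of the UMIs of LP/alveolar cells in the lactation libraries F11 and D6, against 0.212% to 3.87% in the adult, and such a share lowers the CPM of every other gene. In lactating basal cells they gave 41.4% and 13.2%. In LP/alveolar cells the scaling factors (TMM) were 0.285 and 0.307 in lactation and 1.49 to 2.0 in the adult. Sox4 in LP/alveolar cells was 305, 187 and 372 CPM in the adult, 208 and 193 CPM at pregnancy day 12.5, 88.1 and 148 CPM at day 18.5 and 23.5 and 12.3 CPM in lactation. Lactation values lay below all others. Counted per 1000000 UMIs of genes other than 8 milk genes, called milk-free CPM here, the stage means were 293 ± 93.1 (SD, n = 3), 234 ± 10.1 (n = 2), 183 ± 66.9 (n = 2) and 79.8 ± 32.9 (n = 2). The change from pregnancy day 18.5 to lactation was -0.99 (SE 0.49, edgeR adjusted p = 0.364) and became -2.72 (adjusted p = 0.00163) without TMM, where the median gene moved by -1.78.

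On the milk-free scale Sox9 in LP/alveolar cells averaged 82.4 ± 1.23 CPM (SD, n = 2) at pregnancy day 12.5, 141 ± 14.2 (n = 2) at day 18.5 and 251 ± 48.3 (n = 2) in lactation, beside 305 ± 112 (n = 3) in the adult. With milk genes counted the lactation libraries had 49.6 and 62.3 CPM, below 85.0 and 96.7 CPM at day 18.5. The fitted change to lactation was 1.07 (SE 0.45, edgeR adjusted p = 0.281), and -0.70 without TMM (adjusted p = 0.157), so its direction rests on the scaling.

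**Figure D4:**
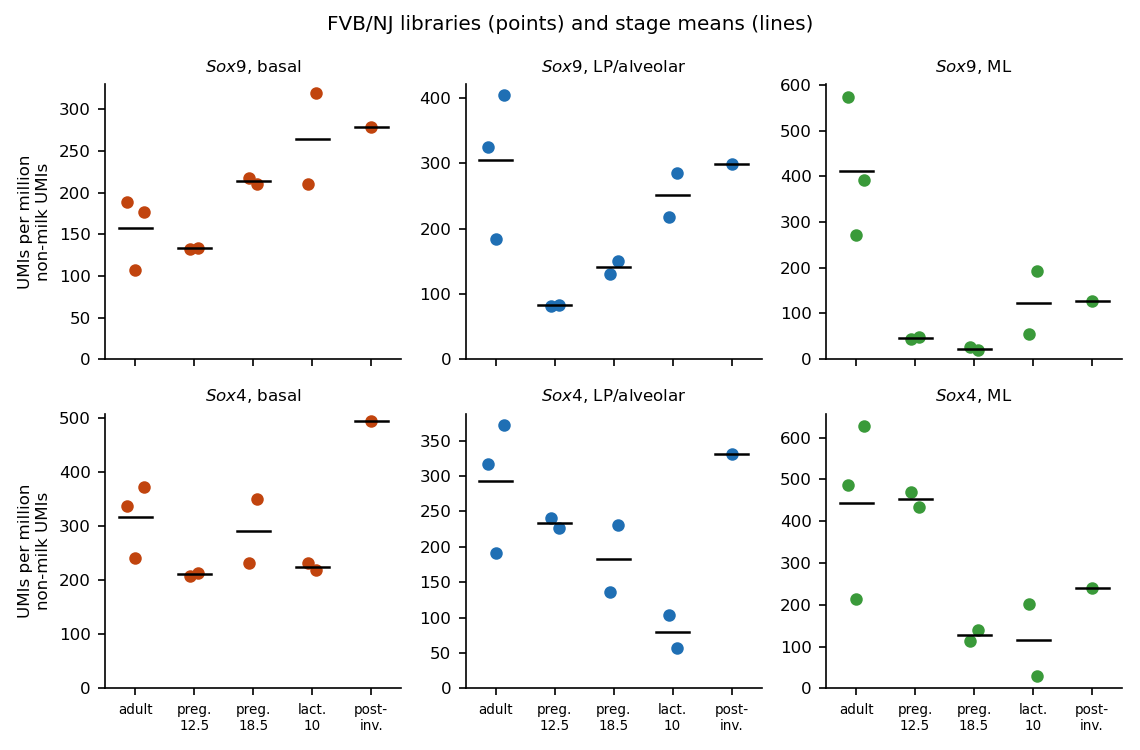
Sox9 and Sox4 in basal, LP/alveolar and ML cells of 10 FVB/NJ libraries, in milk-free CPM, which leaves out the milk genes. Points are libraries and lines stage means. Sox9 in ML cells goes from 413 in the adult to 45.8 at pregnancy day 12.5, and Sox4 in LP/alveolar cells from 293 to 79.8 in lactation.

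Sox10 in LP/alveolar cells was 61.9, 51.0 and 102 CPM in the adult, 68.3 and 56.9 CPM at pregnancy day 12.5, 18.2 and 36.5 CPM at day 18.5 and 7.43 and 8.77 CPM in lactation. On the milk-free scale the means were 73.0, 72.9, 42.4 and 36.4 CPM. The change from day 12.5 to 18.5 was -0.67 (SE 0.44, edgeR adjusted p = 0.50). In basal cells Sox10 was 21.1, 13.7 and 51.9 CPM in the adult, 29.7 and 32.9, 33.3 and 58.6, and 16.3 and 33.8 CPM at the later stages, and the adult spread covered most of these. The difference of LP/alveolar from basal cells in the change between day 12.5 and 18.5 was -1.14 (SE 0.31, edgeR adjusted p = 0.0805), and it passed without the filter on low counts (adjusted p = 0.00425), without TMM (-1.77, adjusted p = 0.0236) and without D12 (-1.13, adjusted p = 0.00829).

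Among epithelial classes of the FVB/NJ adult and pregnant gland Sox11 was highest in basal cells, and its level differed between libraries. Basal cells had 47.5 CPM in A10 (985 UMIs), 3.41 CPM in P7 and 0.25 CPM in D12 (3 UMIs), so the 3 adult libraries differed far more than their counting intervals. Of the 2 basal clusters in A10, both held it, at 40.2 CPM in 3805 cells and at 80.2 CPM in 408 cells of a cluster led by cell cycle genes such as Top2a and Ccnb1. Pregnancy day 12.5 had 19.6 and 24.0 CPM, day 18.5 had 6.57 and 4.38 CPM, and lactation had 0 UMIs in both libraries, which allows up to 1.81 and 3.91 CPM by a limit of 3 counts. The change from adult to pregnancy day 12.5 was 0.28 (SE 1.23, edgeR adjusted p = 0.95) and 4.5 (adjusted p = 0.0197) when A10 was left out. From day 12.5 to 18.5 it was -2.10 (SE 1.44, edgeR adjusted p = 0.774), and -2.14 (adjusted p = 0.00104) without the filter on low counts. LP/alveolar cells of the 9 libraries had at most 0.728 CPM.

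Shares of positive cells over the 4 stages were tested by exact two-sided permutation of the libraries, 12 tests with a smallest possible p of 0.000794. Sox4 in LP/alveolar cells averaged 33.9%, 31.5%, 18.7% and 4.72% from adult to lactation (exact permutation p = 0.00794, adjusted p = 0.0571). Sox9 in ML cells averaged 45.2%, 6.24%, 2.73% and 12.1% (exact permutation p = 0.00952, adjusted p = 0.0571). Neither passed 0.05 after adjustment, nor did the other 10. Without the second ML cluster Sox9 in ML cells did (adjusted p = 0.00952). With cells thinned to 1000 UMIs of non-milk genes, an alternative chosen after the data were seen, lactating LP/alveolar cells were positive for Sox9 in 19.6% and adult ones in 22.9%, and for Sox4 in 5.86% and 21.6%.

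After involution most values lay within the adult range. The exceptions were Sox9 in ML cells, 126 CPM against 272 to 573, Sox4 in basal cells, 493 CPM against 242 to 372, and Sox9 in basal cells, 279 CPM against 107 to 189. Sox10 in LP/alveolar cells was 48.0 CPM against 51.0 to 102, but 53.6 against 52.1 to 102 in milk-free CPM. Sox9 in LP/alveolar cells was 268 CPM, inside the adult range of 180 to 404. With 1 post-involution library these were not tested.

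TEB, the growing tips of the pubertal gland, were set against ducts of the same age. Sox4 in ML cells was 585 CPM (576 to 595) in TEB and 259 CPM (249 to 269) in ducts, with 53.6% and 31.1% positive and a ratio of 1.72 (1.49 to 1.99). Sox4 in LP/alveolar cells had a ratio of 1.32 (1.13 to 1.55), and in basal cells one of 0.903 (0.810 to 1.01) that was 0.721 (0.603 to 0.861) at 1000 UMIs and 1.04 (1.02 to 1.06) without thinning. Sox11 was found in basal cells, at 36.3 CPM (33.0 to 39.7) in TEB and 13.8 CPM (11.7 to 16.2) in ducts. Its share was 6.93% against 1.2%, a ratio of 5.77 (2.79 to 11.9) that was 2.76 at 1000 UMIs. Sox9 in basal cells was lower in TEB, 71.1 CPM (66.5 to 75.9) against 118 CPM (112 to 125), a ratio of shares of 0.525 (0.395 to 0.696) that was 1.0 without thinning. In LP/alveolar cells the Sox9 ratio was 0.758 (0.591 to 0.974), and 1.04 at 1000 UMIs. ML cells went the other way, 393 CPM in TEB and 316 CPM in ducts, with a ratio of 1.22 (1.07 to 1.38).

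Sox10 in basal cells was 89.9 CPM (84.8 to 95.2) in TEB and 77.1 CPM (72.0 to 82.5) in ducts, and in LP/alveolar cells 104 CPM and 82.4 CPM, where the ratio of shares was 0.994 (0.701 to 1.41). The ratio for basal cells was 1.46 (1.13 to 1.89), and 1.05 at 1000 UMIs. In ML cells Sox10 was 8.72 CPM in TEB and 12.3 CPM in ducts, with a ratio of shares of 0.486 (0.189 to 1.3) that was 1.3 at 1000 UMIs. TEB cells were deeper, with a median of 21609 UMIs against 14096. Basal cells of TEB carried less of the 8 basal markers, 4458 CPM against 13694, and the part of this in the values was not tested. Each structure is 1 single-cell library, so these values have no replicate check.

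**Figure D5:**
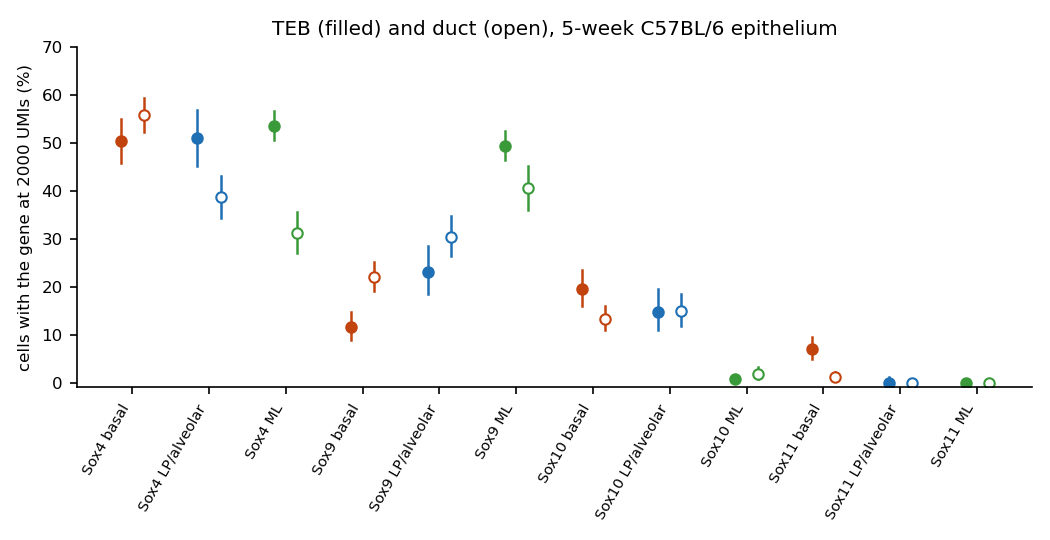
Share of cells with each SOX gene at 2000 UMIs in TEB (filled) and duct (open) cells of 3 epithelial classes, with 95% exact intervals. Sox4 in ML cells reaches 53.6% in TEB and 31.1% in ducts, and Sox11 in basal cells 6.93% and 1.2%.

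Other genes of the pathway were listed as known SOXE targets (14), SOXC targets (4) and partners in mammary progenitors (6). In LP/alveolar cells at pregnancy day 12.5 against the adult, where 6.55% of all genes tested were lower, 1 of 10 tested SOXE targets was lower, Mitf, a regulator of melanocytes (-1.69, SE 0.44, edgeR adjusted p = 0.0361). Of 2 tested SOXC targets Tead2, a partner of YAP in transcription, was lower (-1.40, adjusted p = 0.0343). Of the 6 partners, 2 were lower, Aldh1a3 (-4.16, adjusted p = 0.00621), which makes retinoic acid, and Cd14 (-3.97, adjusted p = 0.0252), a co-receptor for bacterial lipopolysaccharide. Elf5, Kit, Aldh1a3 and Cd14 are also among the markers that named the LP/alveolar cells. Elf5, a driver of the alveolar fate, had 0.56 (adjusted p = 0.356) and Kit, a receptor of luminal progenitors, -1.11 (adjusted p = 0.141). The list medians were 0.08, -0.43 and -0.46 beside 0.03 for all genes.

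In ML cells of the same comparison 3.89% of all genes tested were higher. There 1 of 5 tested SOXE targets was higher (Col9a1, a cartilage collagen), 1 of 3 SOXC targets (Tubb3, a neuronal tubulin) and 1 of 3 partners (Elf5, 2.35, SE 0.53, edgeR adjusted p = 0.0248). Elf5 is also a marker that named LP/alveolar cells. Leaving out the cells with the highest doublet scores (Scrublet) took the ML cells from 214 to 170 in H and from 290 to 241 in G. No listed target or partner passed edgeR in basal cells in this comparison, where 1.13% of 13199 genes were called. At later stages Gjb1, a gap junction gene, rose in LP/alveolar cells from pregnancy day 12.5 to 18.5 (3.83, SE 0.52, edgeR adjusted p = 0.0167). It rose again to lactation (4.5, SE 0.48, edgeR adjusted p = 0.00182), while Sox10, listed here as its regulator, did not pass. In each of these comparisons Gjb1 was 1 of 10 tested SOXE targets, where 0.987% and 3.01% of all genes were called. In basal cells Gjb1 was higher (adjusted p = 0.0491) and Col9a1 lower (adjusted p = 0.0404) in lactation than at day 18.5, 2 of 10 tested SOXE targets where 0.424% of all genes were called. For the difference of LP/alveolar from basal cells, 1 of 12 tested SOXE targets passed from day 12.5 to 18.5, Col9a1, in the higher direction (adjusted p = 0.0366), where 2.16% of all genes were called. From day 18.5 to lactation it was 1 of 12 again, Ednrb, an endothelin receptor (adjusted p = 0.0293), also in the higher direction, where 1.28% were called.

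The other SOX family genes are described by the class with the highest level, which often rests on few UMIs. It was Schwann-like at day 5 for Sox2 (256 CPM, 174 UMIs), Sox3 (8 UMIs), Sox5 (83.8 CPM, 57 UMIs) and Sox12 (33 UMIs). It was endothelial for Sox7 (6 UMIs) and Sox17 (353 CPM, 29 UMIs), epidermal for Sox15 and Sox21, and LP/alveolar in TEB for Sox14 (11.4 CPM). Pre-puberty erythroid cells were highest for Sox6 (421 CPM, 649 UMIs) and unnamed day 5 cells for Sox18 (289 CPM, 281 UMIs). For Sox13 it was mural cells of A10 (9 UMIs), and for Sox30 Schwann-like cells of E18.5 skin (4 UMIs). Sry had 0 UMIs, and Sox1, Sox3, Sox14 and Sox30 had 6, 35, 336 and 66 in all libraries. Sox8, the third SOXE gene, was highest in basal cells of D12, 49.6 CPM, and fell in LP/alveolar cells at pregnancy day 12.5 (-3.47, SE 0.99, edgeR adjusted p = 0.0478), more than in basal cells by -1.89 (SE 0.51, adjusted p = 0.0394). Among 12 family genes tested in LP/alveolar cells in this comparison, 2 were lower and 0 higher, where 6.55% of all genes tested were lower. From day 18.5 to lactation 1 of the 12, Sox17, was higher (adjusted p = 0.0118), where 3.01% of genes were called, and its level in lactation F11 was 0.490 CPM from 17 UMIs.

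Likeness of pattern was described over 30 sums of cells, 3 classes in 10 FVB/NJ libraries that share library and depth, among 7202 genes, by Pearson r of log2(CPM + 5). Sox10 was most like Tgfb2 (r = 0.89), Clmn (0.86) and Tcf7l2 (0.85). Sox11 was most like Lbhd2 (0.91) and Vcan (0.88), Sox9 like Gm17056 (0.82), Amd1 (0.77) and Amd2 (0.77), and Sox4 like Ltbp3 (0.85) and Mllt3 (0.84). Amd1 and Amd2 are near-identical copies, so their counts are uncertain.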

How the data were processed

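Sorted mammary cells of 18 libraries were sequenced with a droplet kit that reads transcript 3' ends. The authors aligned reads to mm10 and deposited whole-number UMI counts per gene and barcode, as made by Cell Ranger (3.1.0 in the submitters' processing notes), not normalized. The study's limits on counts and genes were applied (500 genes as the lower limit). Cells were clustered per set of libraries with Seurat 5.3.0 at resolution 0.1, leaving out SOX and cell cycle genes, and named from fixed markers. No doublet caller was used in the main analysis, and the 5% of cells with the highest Scrublet score were left out as an alternative. CPM intervals are exact Poisson, those of shares exact binomial (Clopper-Pearson) and those of ratios of shares large-sample approximations on the log scale. Shares used cells thinned to 2000 UMIs. Total counts per library ran from 9920346 to 93234616 UMIs.

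Counts summed per library and class were tested with edgeR 4.0.16 (quasi-likelihood, TMM, Benjamini-Hochberg) in the 9 FVB/NJ stage libraries, and the difference between LP/alveolar and basal cells with library as a block. Shares were tested by exact permutation. DESeq2 1.42.0 was an alternative. Scripts were tested on simulated data. Intervals and limits of 3 counts cover counting error only. Post-involution age is as the labels give it, which differs from the paper in its origin.

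Named genes were the 4 members throughout, listed targets, partners and family genes past the test, and the 5 genes most like each member, of which some are printed. The members and lists were chosen with earlier results of these data known. No sequences are shown.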

Additional observations from a re-analysis of the deposited data

Results flagged for a closer look

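The effect of pregnancy day 12.5 against the virgin adult on Sox9 differed between LP/alveolar and basal cells by -1.71 on the log2 scale, by a test of that difference in edgeR (SE 0.23, adjusted p = 0.00101, library as a block). The LP/alveolar change was -1.79 and the basal change -0.17. Pregnancy libraries lay below all 3 adult libraries in LP/alveolar cells and inside the adult range in basal cells. The call held with each of the 9 libraries left out in turn, without TMM (-1.79, adjusted p = 0.00486) and without the filter on low counts (-1.70).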

How the results depend on the processing

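No paired analysis was possible because replicate numbers were given in accession order and name libraries only. Causes of the changes listed here were not tested. Of 67 values for the C57BL/6 stages 25 moved beyond the interval of the main value, of 29 for TEB against duct 10, of 36 for Schwann-like cells 9 and of 9 for the rudiment 2.

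With cells thinned to 1000 UMIs, the ratios to E18.5 were, for Sox4, 0.885 (adult LP/alveolar) and 1.73 (day 5 basal), for Sox9 1.63, 2.66 and 3.07 in LP/alveolar cells of day 5, pre-puberty and adult and 2.35 and 3.37 in basal cells of day 5 and pre-puberty, and for Sox10 0.612 and 3.51 in LP/alveolar cells of day 5 and pre-puberty. TEB to duct gave 0.721 and 2.05 for Sox4 in basal and ML cells, 1.04 for Sox9 in LP/alveolar, 1.05 and 1.30 for Sox10 in basal and ML, and 2.76 for Sox11 in basal cells. The rudiment to epidermis ratio of Sox11 was 1.90.

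Without thinning, the ratios to E18.5 were, for Sox4, 1.15, 0.921 and 0.779 in LP/alveolar and 1.06, 1.01 and 0.758 in basal cells (day 5, pre-puberty, adult). For Sox9 they were 1.59 and 1.37 in LP/alveolar cells (pre-puberty, adult) and 1.24, 1.51 and 0.837 in basal cells. For Sox10 they were 1.28 and 0.903 in LP/alveolar cells (day 5, adult) and 1.91 and 0.413 in basal cells (pre-puberty, adult), and for Sox11 0.00241 in adult basal cells. TEB to duct gave 1.04 and 1.19 for Sox4 in basal and ML cells and 1.0 and 1.02 for Sox9 in basal and LP/alveolar cells. The rudiment ratio of Sox11 was 1.99. Schwann-like to LP/alveolar and basal ratios were 1.82 and 1.46 (E18.5), 1.12 and 1.37 (pre-puberty), 1.11 and 1.95 (adult C57BL/6) and 0.904 and 2.12 (post-involution), and 2.23 to LP/alveolar cells at day 5. The lactation minus adult share of Sox9 in basal cells became -10.9 points. Thinning to 1000 non-milk UMIs, added after the data were seen, gave 0.132 points for Sox10 in basal and 0.0105 for Sox11 in LP/alveolar cells, both reversed. Without the ML cluster that had no ML marker among its top 10 genes, also added then, Sox9 in ML cells passed at -37.8 points.

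Without TMM, changes to lactation were -0.063 for Sox9 in basal cells, -0.55 for Sox4 in ML cells, and -2.72 for Sox4, -0.70 for Sox9, -1.75 for Sox10 (adjusted p = 0.00608) and -0.97 for Sox11 in LP/alveolar cells, where Sox10 at pregnancy day 12.5 was -0.20. LP/alveolar minus basal became -1.94 for Sox4 (adjusted p = 0.00724), -0.53 for Sox9 and -0.76 for Sox10 in lactation, and -0.30 for Sox9, -1.77 for Sox10 and -0.073 for Sox11 at day 18.5. The Sox10 change of LP/alveolar cells to lactation, near 0 in the main fit, was 0.035 with DESeq2, 0.036 in cells with at least 1000 genes and 0.014 when high Scrublet scores were left out. DESeq2 (2.68) and no filter (2.61) called Sox9 in lactating ML cells, and no filter called Sox11 in basal cells (-2.14) and the Sox10 difference (-1.14) at day 18.5.

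Leaving out 1 library at a time gave these ranges, a lone library being assumed to vary like the others. At pregnancy day 12.5 they were -0.43 to 0.066 (Sox9), -0.15 to 0.89 (Sox10) and -0.30 to 4.5 (Sox11) in basal cells, -2.11 to -1.61 (Sox9) and -0.14 to 0.36 (Sox10) in LP/alveolar cells, and -0.50 to 0.19 (Sox4) and -3.62 to -2.89 (Sox9) in ML cells. At day 18.5 Sox4 in LP/alveolar cells ran from -0.74 to 0.15 and the differences of Sox10 and Sox11 from -1.38 to -0.91 and from -3.76 to 1.04. To lactation they were 0.79 to 1.22 (Sox9, called without P7, adjusted p = 0.0325), -0.48 to 0.64 (Sox10) and -0.076 to 5.59 (Sox11) in LP/alveolar cells, and -1.83 to 0.95 (Sox4) and 1.51 to 3.29 (Sox9, called without F11, adjusted p = 0.0384) in ML cells. Shares in basal cells, lactation minus adult, ran from -2.43 to 9.69 points for Sox9 and from -2.43 to 2.02 points for Sox10.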
